A study of Mus musculus with 5 samples.

Results

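The cortical neural precursor culture (Ctx NPC) was compared with the cortical astrocyte culture (Ctx astrocyte) in mRNA sequencing libraries made from total RNA. These were 2 of the 5 libraries of the study, which set VM (ventral midbrain) astrocytes beside cortical astrocytes and cortical precursors. The 2 libraries were taken by their labels, and every gene above a low-level filter was compared between them. Of 20178 counted entries, 12623 had over 1 FPKM (fragments scaled to transcript length and library total, a level that can be set beside that of another gene) in at least 1 of the 2 libraries.

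The Ctx NPC cells came from the cortex of ICR mouse embryos at embryonic day 12 and were at passage 2. The Ctx astrocytes came from the cortex of ICR mice at postnatal day 5, were also at passage 2, and carry the cell type entry astrocyte progenitor cells. The other 3 libraries, shown side by side below, came from VM astrocytes of ICR mice at postnatal day 5 and passage 2. One of them (VM astrocyte) carries no transduction entry. The 2 transduced libraries are named here by their titles, mAST-VM C and mAST-VM NF: their transduction entries go against these titles (Nurr1+Foxa2 lentiviruses for C, mock virus for NF), so no direction was drawn between them. The growth entry of the Ctx NPC library describes astrocytes only, and the medium, the mitogens and any differentiation step used for the precursors are not given in the sources used here.

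Each condition was 1 library, so no test could be made and no difference below has a replicate check. Age and cell type differed together between the 2 cultures, as culture conditions may have, and cannot be told apart. Values are read counts scaled to 1 common library total (CPM), which compare 1 gene between libraries, or FPKM where genes are compared with each other. The log2 ratio is Ctx NPC over Ctx astrocyte after 0.5 reads were added, so that 1 is a 2-fold higher level in Ctx NPC, and the 95% intervals (Clopper-Pearson) cover counting error only. Fewer cells of a type and less RNA per cell cannot be told apart in such bulk libraries.

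As background, precursors of the embryonic cortex are radial glia, dividing cells that line the ventricle and produce neurons first and then astrocytes and oligodendrocytes. An oligodendrocyte progenitor carries the PDGF receptor Pdgfra and the transcription factors Olig1, Olig2 and Sox10, passes through a stage marked by the receptor Gpr17, and only then makes the lipids and proteins of myelin. Astrocytes grown from newborn brain are flat, matrix-producing cells, and such cultures usually hold some microglia.

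The libraries held between 20010818 (Ctx NPC) and 22554835 reads (mAST-VM C), with 21435367 in Ctx astrocyte. In Ctx NPC 15181 entries had a read and in Ctx astrocyte 15775, and 11068 genes passed 1 FPKM in both. Reads of the top 100 genes made up 13.9% of the Ctx NPC library and 18.0% of the Ctx astrocyte library. Gapdh and Ppia, enzymes of every cell with many processed copies in the genome, had at most 0.44 CPM in any of the 5 libraries, so genes with near-identical copies are uncertain in these counts.

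Most of the transcriptome was shared. Between the 2 libraries 7826 genes, or 62.0%, differed by less than 2-fold, and Pearson's r of log2(FPKM + 1) was 0.791 across the 12623 genes, which are not independent replicates. At least 2-fold higher in Ctx NPC were 2538 genes (20.1%), and at least 2-fold lower were 2259 genes (17.9%). At 4-fold, 869 genes were higher and 1147 lower, and at 16-fold 207 and 358. The median log2 ratio over all genes was 0.19 rather than 0, and list medians below are read beside it. Under TMM scaling that median was 0.0063 and the counts turned to 2034 genes higher and 2594 lower.

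**Figure D1:**
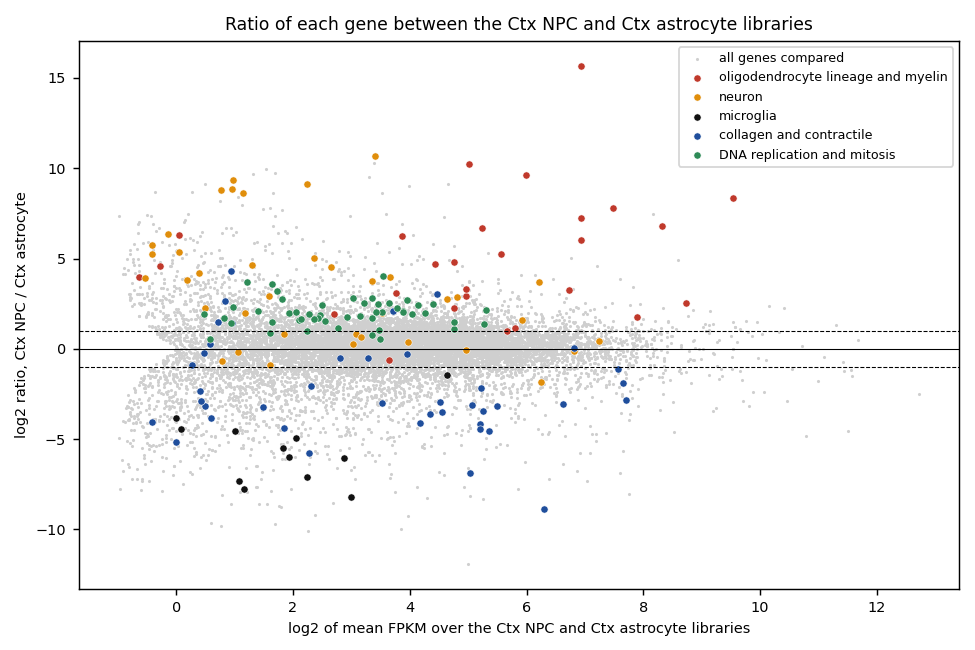
Log2 ratio of Ctx NPC over Ctx astrocyte (vertical axis) against the log2 of the mean FPKM of both libraries (horizontal axis) for the 12623 genes compared, 1 library a condition. Dashed lines mark 2-fold. Oligodendrocyte-lineage genes (red) reach the highest ratios at high FPKM, microglial (black), collagen and contractile genes (blue) lie mostly below the lower line, and replication and mitosis genes (green) form a narrow band above 0.

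The genes furthest apart named different cell kinds on each side. Of the 10 highest ratios among genes with at least 10 CPM in the higher library, 5 belong to the oligodendrocyte lineage: Gpr17, its stage marker, Enpp6, a choline phosphodiesterase of newly forming oligodendrocytes, Mag, a myelin adhesion protein, Zfp488, a transcription factor that promotes their maturation, and Gpr37, an orphan receptor of oligodendrocytes. Gpr17 had 25368 reads (1268 CPM) in Ctx NPC and 0 in Ctx astrocyte, at least 9058-fold higher against a floor of 3 reads. Enpp6 had 199 CPM against 0.14 CPM (3 reads), a log2 ratio of 10.24 (95% interval 8.93 to 12.75), and Zfp488 had 89.7 CPM against 0.047 CPM (1 read), a log2 ratio of 10.31 (8.43 to 16.21). The others included Dcx, a microtubule protein of migrating neuroblasts, Tbr1, a transcription factor of early cortical glutamatergic neurons, Grm7, a presynaptic glutamate receptor, and Scrt1, a neuronal repressor. Dcx had 191 CPM against 0.093 CPM (2 reads), with a log2 ratio of 10.67 (9.15 to 14.05). With 0 reads in Ctx astrocyte, Grm7 (24.1 CPM) was at least 172-fold higher in Ctx NPC, Gpr37 (20.9 CPM) at least 149-fold, Scrt1 (20.1 CPM) at least 144-fold, Ttc9b (18.0 CPM) at least 128-fold and Tbr1 (15.6 CPM) at least 111-fold.

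Of the 10 lowest ratios, 6 are genes of the macrophage lineage, and 9 had no read in Ctx NPC. The chemokine Ccl6 had 1965 reads (91.7 CPM) in Ctx astrocyte, at least 612-fold above Ctx NPC, and the chemokine Ccl9 had 19.6 CPM, at least 131-fold above it. The macrophage lectin Siglec1, the secreted Wfdc17, the antibody receptor Fcgr3 and the scavenger receptor Msr1 had 10.3 to 19.4 CPM in Ctx astrocyte, at least 68.8-fold to 129-fold above Ctx NPC. All 6 were higher still in the 3 VM libraries, where Ccl6 reached 342 to 573 CPM. Another 3 belong to muscle and heart: the heat-shock protein Hspb7 (26.6 CPM, at least 177-fold above Ctx NPC), the T-box factor Tbx20 (21.9 CPM, at least 146-fold) and Cnn1, the smooth muscle calponin. Cnn1 had 0.65 CPM in Ctx NPC and 313 CPM in Ctx astrocyte, a log2 ratio of -8.86 (-9.82 to -8.14). The last of the 10, the ribosomal protein gene Rpl29, had 520 reads in Ctx astrocyte and 0 in Ctx NPC. It has many near-identical copies and its count is uncertain.

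The most abundant transcripts by FPKM overlapped in part. Eef1a1, the translation elongation factor, led in Ctx NPC with 3836 FPKM, followed by the tubulin Tuba1a (3589 FPKM) and the intermediate filament Gfap (2246 FPKM). Fth1, the iron store ferritin heavy chain, led in Ctx astrocyte with 11542 FPKM against 2073 FPKM in Ctx NPC. Also among the 10 most abundant in Ctx astrocyte were Igfbp2, which binds insulin-like growth factors (238 FPKM in Ctx NPC and 5564 FPKM in Ctx astrocyte), the iron-binding acute phase protein Lcn2 (122 and 3420 FPKM) and the metallothioneins Mt1 and Mt2. Fabp7, the brain fatty acid binding protein of radial glia, was in the top 10 of Ctx NPC only, with 1914 against 371 FPKM. Vim, Ftl1, Tmsb4x, Fth1 and Eef1a1 stood in the top 10 of both libraries.

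The precursor label was then checked against markers of radial glia and neural stem cells. All 22 genes of that list passed the filter, 7 were at least 2-fold higher in Ctx NPC and 4 lower, with a median log2 ratio of 0.44. Among the higher members were Hes5, a Notch-driven repressor (52.5 against 0.93 CPM), the SoxB factors Sox3 (72.0 against 2.01 CPM) and Sox1 (51.8 against 17.0 CPM), the outer radial glia gene Hopx (182 against 12.3 CPM), Fabp7 and the phosphatase receptor Ptprz1. The stem cell factor Sox2 was 497 against 335 CPM, the stem cell filament Nes 668 against 621 CPM and the glial factor Sox9 261 against 215 CPM, all under 2-fold. Vim, the vimentin filament, was 3443 against 7704 CPM, and Hmga2, a chromatin protein of young stem cells, 6.50 against 21.0 CPM with 160 to 472 CPM in the VM libraries. Genes that mark neural precursors were therefore present in both cortical cultures, and the list as a whole did not separate them.

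Transcription factors that pattern the forebrain split by role. Of 18 measured members 10 were at least 2-fold higher in Ctx NPC and 1 was lower, with a median log2 ratio of 1.96. Among the higher ones were ventral telencephalic factors of the Dlx family. Dlx5 had 13.3 CPM in Ctx NPC and no read in any of the 4 astrocyte libraries, at least 95.3-fold above Ctx astrocyte. Dlx1 was 66.7 against 4.25 CPM and Dlx2 45.2 against 11.6 CPM. Sp8, of the medial and ventral forebrain, was 60.1 against 1.40 CPM.

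Emx2, a factor of the developing cortex, was nearly level between the cortical libraries and low in the VM ones. It was 27.5 against 27.8 CPM, with at most 4.08 CPM in any VM library. Lhx2, a cortical selector gene, was the lower member (40.6 against 116 CPM). Of 15 midbrain and hindbrain genes only En2, Irx1 and Pax2 passed the filter in the cortical libraries. En2, the engrailed factor of the midbrain, had 11.6 CPM in Ctx NPC, 0.33 CPM in Ctx astrocyte and 10.8 to 24.1 CPM in the VM libraries, while the related En1 had 0.25 CPM in Ctx NPC.

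Genes of the neurogenic programme were higher in Ctx NPC, at modest levels. Of 9 measured intermediate progenitor and proneural genes 6 were at least 2-fold higher, 2 were lower and the median log2 ratio was 2.62. Eomes, the factor of intermediate progenitors of the cortex, had 7.35 against 0.14 CPM (3 reads), a log2 ratio of 5.49 (4.14 to 8.01), and Insm1, which drives delamination of progenitors, 21.0 against 1.59 CPM. The stress and differentiation genes Btg2 (131 against 439 CPM) and Gadd45g (78.0 against 167 CPM) were the lower members. Neurog1, Neurog2 and Neurod4, proneural factors of early neurogenesis, had at most 0.30 CPM in either cortical library.

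In the Notch pathway, which keeps neighbouring precursors undifferentiated, 7 of 17 measured members were at least 2-fold higher in Ctx NPC and 2 lower. The receptors Notch1 (430 against 377 CPM), Notch2 and Notch3 differed by less than 2-fold. The ligands went apart: Dll1 was 58.2 against 9.42 CPM and Dll3 73.7 against 2.38 CPM, whereas Jag1 was 7.20 against 27.2 CPM and Jag2 4.95 against 34.4 CPM. Of the Fringe sugar transferases that tune the receptors, Mfng (27.6 against 0.65 CPM) and Lfng (102 against 30.7 CPM) were at least 2-fold higher in Ctx NPC, and Rfng (53.9 against 33.7 CPM) was not. Among the targets Hes5 had a log2 ratio of 5.78 (5.18 to 6.53) and Hes1 one of 0.34 (0.11 to 0.57).

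Neuronal genes followed. Of 19 measured pan-neuronal genes 12 were at least 2-fold higher in Ctx NPC and 1 was lower, with a median log2 ratio of 2.75. At least 2-fold above the highest of all 4 astrocyte libraries were 11 of them, a rule that 9.66% of all genes met. Tubb3, the neuronal tubulin, was 237 against 18.2 CPM, the RNA-binding protein Elavl3 249 against 33.8 CPM, the axonal Mapt 235 against 34.8 CPM and the synaptic vesicle protein Syp 47.6 against 3.45 CPM. Levels in Ctx NPC ranged widely within the list, with Rbfox3, the NeuN antigen, at 5.90 CPM, Snap25, a fusion protein of synapses, at 10.04 CPM, the vesicle protein Syn1 at 34.9 CPM and the dendritic Map2 at 509 CPM. Stmn2, a microtubule regulator of growing axons, went the other way, at 63.6 CPM in Ctx NPC, 228 CPM in Ctx astrocyte and 359 to 581 CPM in the VM libraries.

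Genes of both transmitter classes were found in Ctx NPC. Of 8 measured glutamatergic genes 5 were at least 2-fold higher, namely Tbr1, the factors Neurod2 (10.6 CPM) and Neurod6 (9.60 CPM), both without a read in Ctx astrocyte, the vesicular transporter Slc17a6 (6.40 against 0.093 CPM, 2 reads, log2 ratio 5.77, 4.22 to 9.16) and the receptor subunit Grin1 (8.75 against 0.19 CPM). All 5 passed the filter through Ctx NPC alone, and over the 3 glutamatergic genes above 1 FPKM in both libraries the median log2 ratio was -0.65. Of 11 measured GABAergic genes 9 were at least 2-fold higher, with a median log2 ratio of 4.19, or 3.80 with genes at 0 reads set to their bound. Among the 9 were Dlx1, Dlx2, Dlx5 and Dlx6, which are also counted in the forebrain patterning list, as is Tbr1. Slc32a1, Dlx5, Dlx6 and Sst had no read in Ctx astrocyte and passed the filter through Ctx NPC alone. The vesicular GABA transporter Slc32a1 had 10.9 CPM against 0, at least 78.2-fold higher, the GABA-making enzyme Gad2 14.04 against 0.75 CPM and the calcium buffer Calb2 14.3 against 0.42 CPM. The glutamate transporter Slc17a7 of mature neurons (6.35 against 11.7 CPM) and Gad1 (35.7 against 22.9 CPM) differed by less than 2-fold.

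Genes of the oligodendrocyte lineage reached high levels in Ctx NPC. Of 12 oligodendrocyte progenitor genes, all measured, 11 were at least 2-fold higher in Ctx NPC and none lower, with a median log2 ratio of 3.03, and their summed level was 6217 CPM against 708 CPM. The lineage factors were Sox10 (658 against 10.2 CPM, log2 ratio 6.01, 5.82 to 6.21), Olig2 (465 against 48.0 CPM), Olig1 (798 against 236 CPM) and Nkx2-2 (113 against 14.6 CPM). Pdgfra, the growth factor receptor of progenitors, was 294 against 61.3 CPM, with 79.4 to 186 CPM in the VM libraries. Cspg4, the NG2 proteoglycan of the same cells, was the exception, at 79.4 CPM in Ctx NPC and 123 CPM in Ctx astrocyte.

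Genes of the step from progenitor to oligodendrocyte were also high. Bcas1, an early myelin protein, was 1960 against 17.6 CPM, and Myrf, the master factor of myelination, 516 against 13.3 CPM, a log2 ratio of 5.28 (5.11 to 5.45). Gpr17 had 0.049 to 6.25 CPM in the VM libraries, so its 1268 CPM in Ctx NPC stood far above all 4 astrocyte libraries.

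All 15 measured myelin genes were at least 2-fold higher in Ctx NPC, with a median log2 ratio of 6.24, or 5.28 with genes at 0 reads set to their bound, and 12 of them were at least 2-fold above all 4 astrocyte libraries. The filter set part of this count. Mag, Enpp6, Mog, Mobp and Opalin, among others, passed it through Ctx NPC alone, these with at most 0.373 CPM in Ctx astrocyte. Of the members below the filter Aspa was lower in Ctx NPC (0.35 against 0.746 CPM), and Mal and Ermn were higher. Among the highest by FPKM were Mbp, the myelin basic protein (1485 FPKM in Ctx NPC), Cnp, a cytoskeletal enzyme of myelin (727 FPKM), and the tight junction protein Cldn11 (244 FPKM). Enzymes of myelin lipids were high as well, with the galactolipid enzyme Ugt8a at 269 against 2.61 CPM and the fatty acid hydroxylase Fa2h at 72.2 against 0.93 CPM.

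Genes that come on late in myelination stayed low in every library. Mog, the outermost myelin protein, had 2.75 CPM in Ctx NPC against 0.093 CPM (2 reads), a log2 ratio of 4.56 (2.96 to 7.96). Mobp had 1.85 against 0.093 CPM (2 reads), with a 95% interval of the log2 ratio from 2.35 to 7.41, and Opalin 1.85 CPM against 0. Mal, Ermn and Aspa did not pass the filter, with at most 1.90 CPM in Ctx NPC. Early and late members of the myelin list thus differed by orders of magnitude within the Ctx NPC library, Mbp at 1485 FPKM and Mog at 1.603 FPKM.

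**Figure D2:**
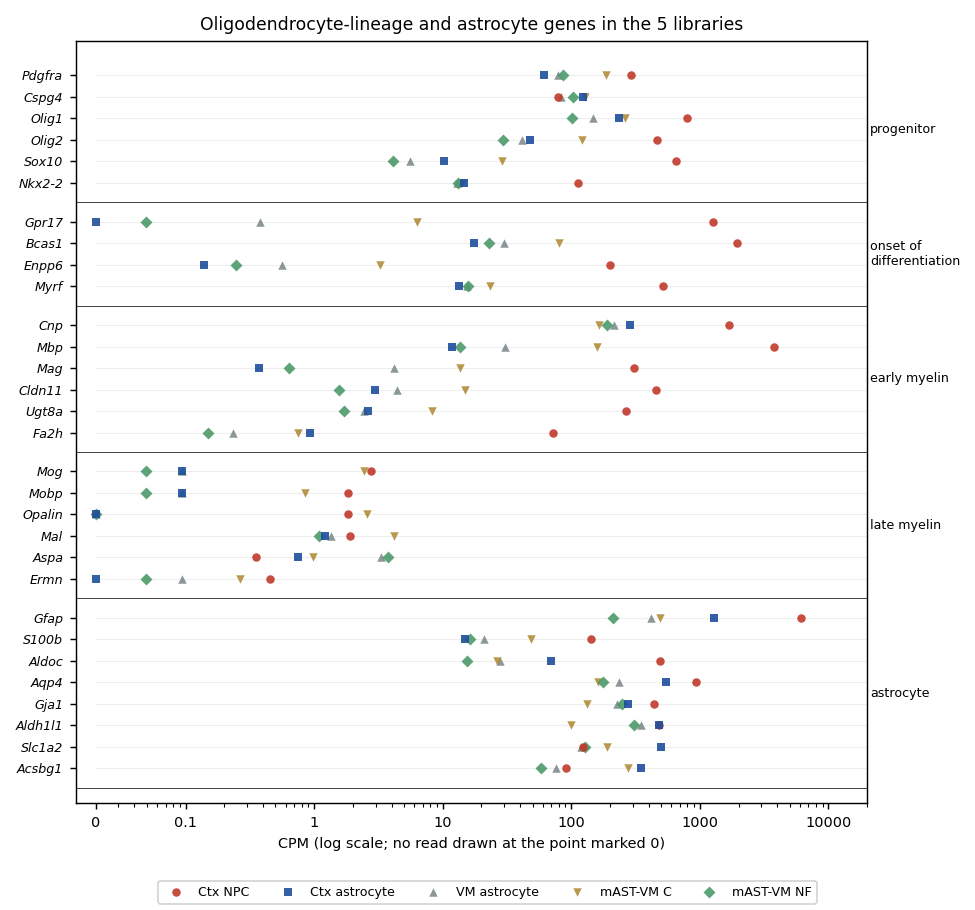
CPM on a log scale (horizontal axis; libraries without a read are drawn at the point marked 0) of oligodendrocyte-lineage and astrocyte genes in the 5 libraries, 1 point a library. In the groups onset of differentiation and early myelin the Ctx NPC point lies to the right of all 4 astrocyte libraries for every gene, from Fa2h at 72.2 CPM to Mbp at 3769 CPM. The late myelin genes stay under 5 CPM in all libraries, and the astrocyte genes are mixed.

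The astrocyte label was checked in the same way, and the astrocyte genes did not favour the astrocyte culture. Of 20 measured members 7 were at least 2-fold higher in Ctx NPC and 4 lower, with a median log2 ratio of 0.64, and the summed level was 16751 CPM in Ctx NPC, 11456 CPM in Ctx astrocyte and 4574 to 5652 CPM in the VM libraries. Gfap, the astrocyte filament, was 6123 against 1298 CPM, a log2 ratio of 2.24 (2.22 to 2.26). Most of the gap between the sums of the 2 cortical libraries came from Gfap. The calcium-binding S100b was 142 against 14.9 CPM, the glycolytic Aldoc 489 against 69.8 CPM and Glul, which makes glutamine, 675 against 311 CPM. The water channel Aqp4 (926 against 547 CPM), the gap junction protein Gja1 (441 against 275 CPM) and the folate enzyme Aldh1l1 (481 against 477 CPM) differed by less than 2-fold.

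Another 4 astrocyte genes were lower in Ctx NPC. Slc1a2, the main glutamate transporter of mature astrocytes, was 124 against 500 CPM, Acsbg1, a fatty acid activating enzyme, 90.6 against 349 CPM, Clu, a secreted chaperone, 541 against 1501 CPM and Atp1b2, a sodium pump subunit, 674 against 1697 CPM. For Slc1a2, Acsbg1 and Atp1b2 the Ctx astrocyte library was itself the highest of the 5, and the Ctx NPC values lay within the range of the VM libraries or just beyond it. Beside these glial genes the Ctx NPC library thus held radial glia, neuronal and oligodendrocyte-lineage genes together, and their shares in cells were not measured.

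Markers of cells that accompany astrocyte cultures were low in Ctx NPC. All 12 measured microglial genes were at least 2-fold lower there, also below the lowest of all 4 astrocyte libraries, with a median log2 ratio of -5.75, or -5.29 with Trem2 at its bound. Only 1 of the 12 had over 1 FPKM in both libraries, with a log2 ratio of -1.45, and the others passed the filter through Ctx astrocyte alone. Their summed level, over all 16 genes matched, was 27.9 CPM in Ctx NPC, 186 CPM in Ctx astrocyte and 379 to 1927 CPM in the VM libraries. The complement gene C1qa had 0.05 CPM (1 read) against 10.2 CPM, a log2 ratio of -7.11 (-12.99 to -5.18), and the receptor Csf1r 0.35 against 7.93 CPM. Trem2, a phagocytic receptor, had no read in Ctx NPC and 5.13 CPM in Ctx astrocyte. The homeostatic marker P2ry12 had at most 1.02 CPM in any library.

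Vascular and meningeal lists were also lower in Ctx NPC, each with few measured members. Among 3 measured endothelial genes 3 were at least 2-fold lower, among 5 pericyte genes 4, and among 7 meningeal fibroblast genes 6. The endothelial cadherin Cdh5 had no read in Ctx NPC and 3.22 CPM in Ctx astrocyte, below the filter, and Cldn5 had no read in either. Other endothelial genes below the filter went both ways. Vwf (3.998 against 1.353 CPM), Pecam1 (0.85 against 0.606 CPM) and Tek (0.3 against 0 CPM) were higher in Ctx NPC. Emcn (0.05 against 0.513 CPM) and Tie1 (0.05 against 0.14 CPM) were lower. Pdgfrb, the mural cell receptor, was 15.9 against 58.9 CPM, and Foxc1, a mesenchymal factor of the meninges, 3.20 against 16.8 CPM. Thy1, a surface protein of fibroblasts and neurons, was 5.70 against 674 CPM, a log2 ratio of -6.88 (-7.17 to -6.62). Ptgds, a prostaglandin enzyme, was the 1 higher member (19.7 against 2.15 CPM). Of 6 measured genes of ependymal cells and motile cilia 5 were at least 2-fold lower, with the cilia factor Foxj1 at 129 against 466 CPM. None of the 6 was at least 2-fold below all 4 astrocyte libraries, and Foxj1 had 53.8 CPM in mAST-VM C. Below the filter Spef2, Mcidas and Tmem212 were higher in Ctx NPC, and Dnah5, Dnah11 and Pifo were lower. Haemoglobin genes of the Hbb cluster had no read in any library.

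**Figure D3:**
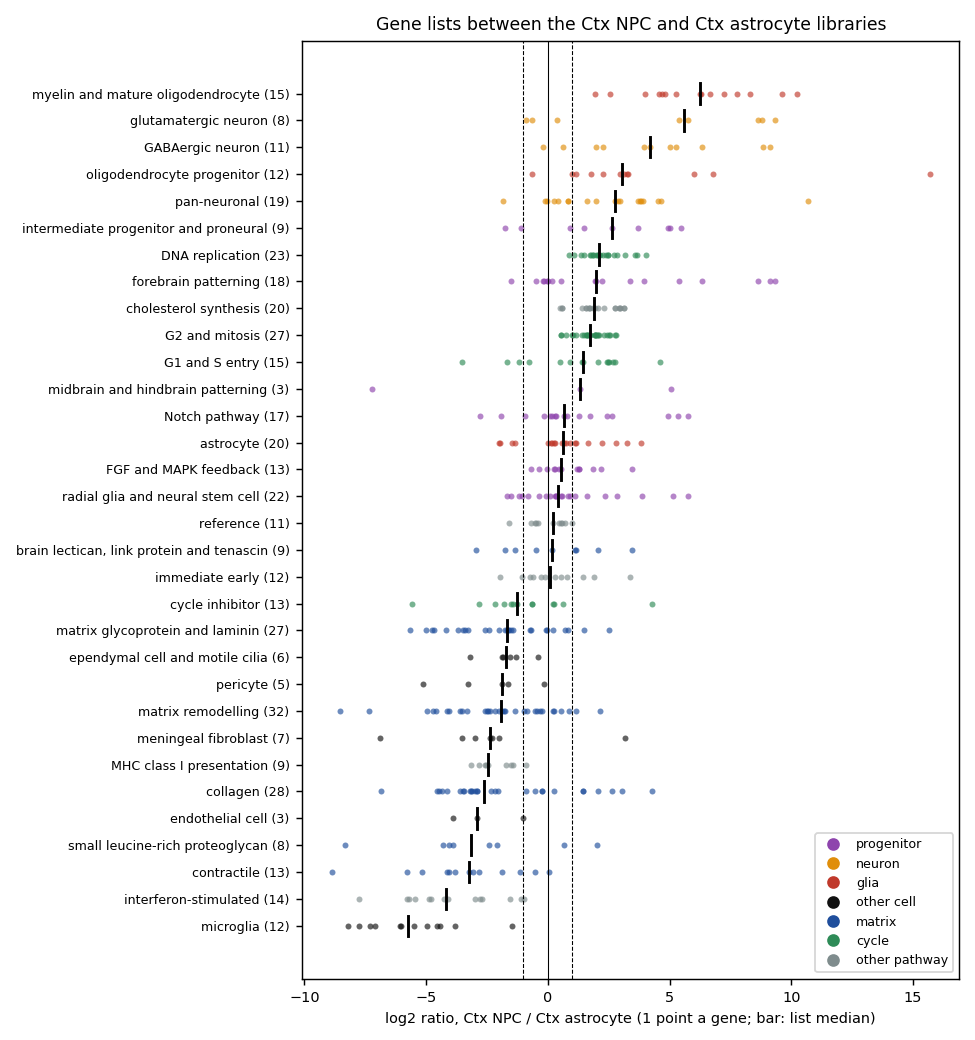
Log2 ratio of Ctx NPC over Ctx astrocyte (horizontal axis) for each gene above 1 FPKM in at least 1 of the 2 libraries, by gene list (rows, with the number of genes), ordered by the list median (black bar); colours mark the theme and dashed lines 2-fold. The myelin list is at the top with a median of 6.24 and the microglia list at the bottom with -5.75, while radial glia, astrocyte and reference genes lie around 0.

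Most lists of matrix genes were lower in Ctx NPC. Of 28 measured collagen genes 17 were at least 2-fold lower and 6 higher, with a median log2 ratio of -2.61 and a summed level of 863 CPM against 4547 CPM. All 17 lower ones were also at least 2-fold below the lowest of the 4 astrocyte libraries, a rule that 11.2% of all genes met. The chains of fibrillar collagen I, Col1a1 (41.2 against 358 CPM) and Col1a2 (33.6 against 367 CPM), of collagen V, Col5a1 (25.8 against 318 CPM) and Col5a2 (26.1 against 463 CPM), and of basement membrane collagen IV, Col4a1 (59.4 against 539 CPM) and Col4a2 (34.6 against 262 CPM), were all lower. The lowest ratio was that of Col8a1, a network collagen, with 2.85 against 334 CPM and a log2 ratio of -6.86 (-7.28 to -6.50).

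The 6 collagen genes that were higher in Ctx NPC are minor types. The 3 chains of collagen IX, which has interrupted triple helices and decorates fibrils, were among them: Col9a1 (14.2 against 0.70 CPM), Col9a2 (8.55 against 1.35 CPM) and Col9a3 (113 against 13.8 CPM). Col16a1 was 112 against 26.6 CPM with 53.6 to 102 CPM in the VM libraries, and Col11a2 and Col27a1 were each under 20 CPM. The fibrillar chain Col11a1 (110 against 132 CPM) and Col3a1 (45.3 against 64.6 CPM) differed by less than 2-fold.

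Secreted glycoproteins of the matrix went the same way. Of 27 measured members 18 were at least 2-fold lower and 2 higher, with a median log2 ratio of -1.67. Fibronectin, Fn1, was 98.5 CPM in Ctx NPC, 1253 CPM in Ctx astrocyte and 3217 to 5501 CPM in the VM libraries. The thrombospondins Thbs1 (61.6 against 1651 CPM) and Thbs2 (4.35 against 141 CPM), osteopontin Spp1 (11.6 against 589 CPM) and the CCN proteins Ccn1 (204 against 2187 CPM) and Ccn2 (23.7 against 431 CPM), which follow mechanical and TGF-beta signals, were among the lower ones. Laminin chains were not uniform: Lamb1 was 21.2 against 204 CPM and Lama5 82.8 against 492 CPM, while Lamc1, the shared gamma chain, was 459 against 394 CPM. The higher members were Mfap2, a microfibril protein (58.0 against 9.98 CPM), and Matn2, a matrilin (29.9 against 10.6 CPM).

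Among 8 measured small leucine-rich proteoglycans, which bind collagen fibrils, 6 were at least 2-fold lower in Ctx NPC and 1, Lum, higher (5.25 against 1.26 CPM). Fmod, fibromodulin, was 0.65 against 217 CPM, a log2 ratio of -8.33 (-9.30 to -7.61), and Bgn, biglycan, the most abundant of them, 112 against 470 CPM.

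The perineuronal and progenitor matrix of the brain did not follow the collagens. Of 9 measured lecticans, link proteins, tenascins and related proteoglycans 4 were at least 2-fold higher in Ctx NPC and 3 lower, with a median log2 ratio of 0.18 (-0.0033 under TMM scaling). Bcan, brevican, was 1368 against 126 CPM, with 31.7 to 63.1 CPM in the VM libraries, and Tnr, the tenascin of oligodendrocytes, 135 against 32.5 CPM. Ncan, neurocan, was 1812 against 2502 CPM and Vcan, versican, 212 against 187 CPM, both within 2-fold. Tnc, the tenascin of radial glia and reactive astrocytes, was 415 against 1053 CPM, with 4250 to 5520 CPM in the VM libraries.

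Enzymes that cut or cross-link the matrix and their inhibitors were mostly lower, 20 of 32 measured members against 2 higher, with a median log2 ratio of -1.93. The gelatinase Mmp2 was 17.6 against 177 CPM, the cross-linking enzyme Lox 3.75 against 118 CPM and the inhibitor Timp1 29.6 against 362 CPM. Mmp12, the macrophage elastase, was 0.10 CPM (2 reads) against 46.5 CPM, a log2 ratio of -8.55 (-11.91 to -7.01). The 2 higher members were Adamts4 (129 against 29.4 CPM), an aggrecanase that cleaves brevican and is known from oligodendrocytes, and Mmp16 (19.3 against 8.54 CPM).

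Of 13 contractile genes, all measured, 11 were at least 2-fold lower in Ctx NPC and none higher, with a median log2 ratio of -3.22. Among the lower ones were Acta2, smooth muscle actin (309 against 672 CPM), Tagln, transgelin (136 against 508 CPM), Tpm1, a tropomyosin (62.4 against 448 CPM), and Cald1, caldesmon (85.4 against 711 CPM). The myosin light chain Myl9 (124.6 against 121 CPM) and the actin-binding Smtn (19.2 against 27.4 CPM) differed by less than 2-fold. The CArG box, the site of serum response factor, was found in the 250 bases before the start of 1 of the 10 contractile genes with a RefSeq promoter (Myl9), and in 1.47% of all 32851 promoter windows.

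**Figure D4:**
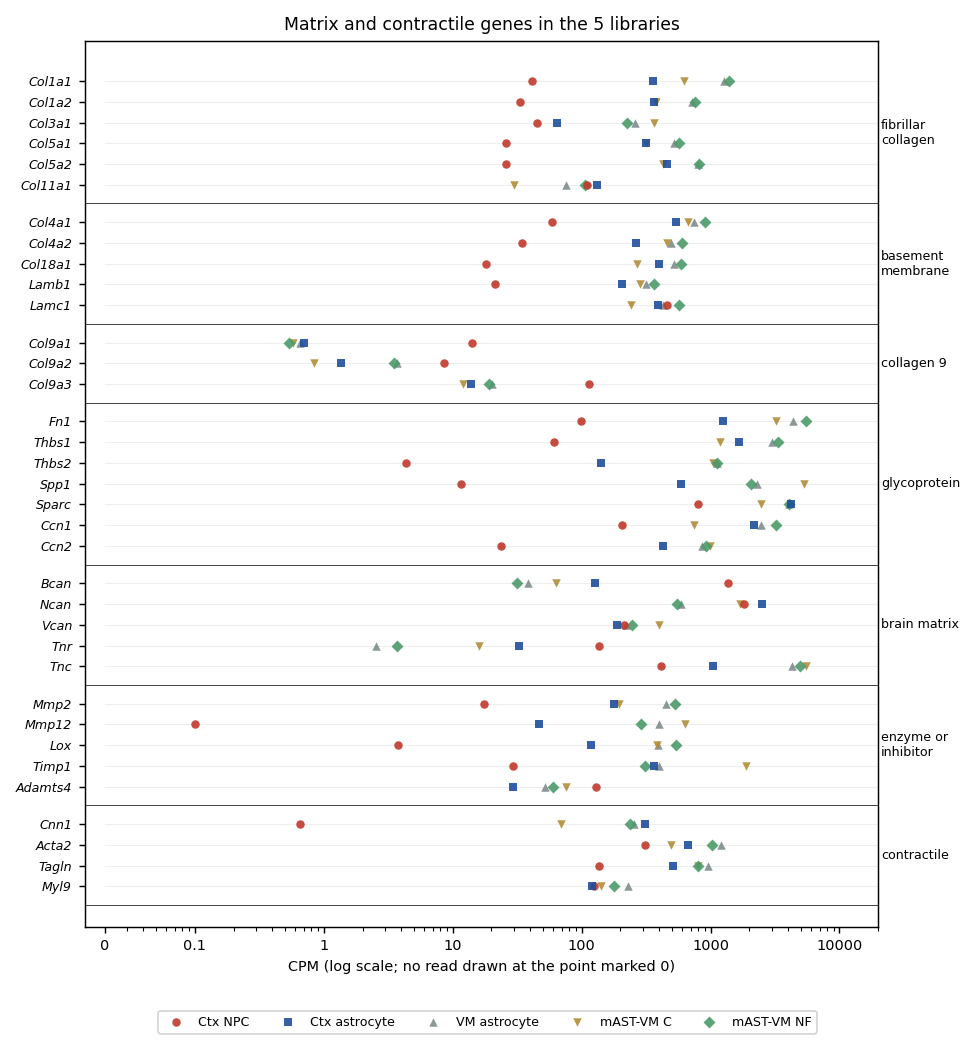
CPM on a log scale (horizontal axis) of matrix and contractile genes in the 5 libraries, 1 point a library. For collagens I, IV and V and the glycoproteins the Ctx NPC point lies to the left of all 4 astrocyte libraries, with Fn1 at 98.5 CPM against at least 1253 CPM. Collagen IX, Bcan, Tnr and Adamts4 lie to the right.

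All 23 DNA replication genes had a log2 ratio above 0 and 22 of them were at least 2-fold higher in Ctx NPC, with a median log2 ratio of 2.10. The helicase subunits Mcm5 (76.5 against 4.62 CPM), Mcm3 (78.3 against 11.9 CPM) and Mcm2 (101 against 18.9 CPM), the polymerase Pole (30.8 against 2.38 CPM) and the clamp Pcna (82.2 against 18.5 CPM) were among them. The median level of the list was 45.9 CPM in Ctx NPC, 11.7 CPM in Ctx astrocyte, 22.3 CPM in VM astrocyte, 40.5 CPM in mAST-VM C and 15.8 CPM in mAST-VM NF.

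All 27 genes of G2 and mitosis also had a log2 ratio above 0, and 24 were at least 2-fold higher, with a median of 1.72. Mki67, the proliferation antigen, was 96.7 against 17.8 CPM, the topoisomerase Top2a 124 against 30.0 CPM and the cyclin Ccna2 50.8 against 7.18 CPM. None of the 27, and none of the 23 replication genes, was at least 2-fold above all 4 astrocyte libraries. The median level of the list was 21.0 CPM in Ctx NPC and 6.25 CPM in Ctx astrocyte, with 20.8 to 26.8 CPM in the VM libraries, so the Ctx astrocyte library was the low one. Against VM astrocyte 0 of 27 mitosis genes were at least 2-fold higher in Ctx NPC and 2 lower, whereas 11 of 23 replication genes were at least 2-fold higher.

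Promoters are shown for a mitotic cyclin and for the activator of the anaphase-promoting complex. Both hold letter matches to motifs known from this gene class: the CHR element, TTTGAA, and the CCAAT box, both searched on either strand. Ccnb2 (12.04 against 3.87 CPM) is read from chr9:70421555-70421804 and Cdc20 (26.8 against 13.2 CPM) from chr4:118437344-118437593, both on the minus strand of GRCm38.p6 (RefSeq), as the 250 bases before the gene start, 5′ to 3′, with matches in capitals.
Ccnb2: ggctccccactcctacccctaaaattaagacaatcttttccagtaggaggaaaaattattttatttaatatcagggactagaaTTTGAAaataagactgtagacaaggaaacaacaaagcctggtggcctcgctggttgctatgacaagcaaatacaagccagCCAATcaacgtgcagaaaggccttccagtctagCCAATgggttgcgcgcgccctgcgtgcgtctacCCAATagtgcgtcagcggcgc
Cdc20: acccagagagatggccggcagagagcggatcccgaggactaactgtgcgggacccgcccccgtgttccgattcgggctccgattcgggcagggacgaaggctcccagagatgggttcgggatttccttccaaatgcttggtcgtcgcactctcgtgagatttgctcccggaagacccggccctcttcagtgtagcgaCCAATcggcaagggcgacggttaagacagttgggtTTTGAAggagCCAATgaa

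Of the 22 mitosis genes with such a promoter, 18 held a CCAAT box and 7 a TTTGAA match, or 81.8% and 31.8% of windows. Over all 32851 windows these shares were 33.8% and 16%, and TTTGAA was in 8.33% of the windows of the replication list. In Cdc20 the CHR match ended 12 bases before the start, and in Ccnb2 the 3 CCAAT boxes ended 82, 49 and 16 bases before it. The TTTGAA match of Ccnb2 lay upstream of these boxes and ended 161 bases before the start. Whether any of these matches acts as an element was not tested.

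Genes of G1 and S entry were not of one direction. Of 15 measured members 9 were at least 2-fold higher in Ctx NPC and 3 lower, with a median log2 ratio of 1.45. The licensing factor Cdc6 was 17.6 against 0.70 CPM, the kinase Cdk4 503 against 93.1 CPM, Myc 140 against 25.2 CPM and the neural Mycn 9.20 against 1.59 CPM. The lower members were E2f1, a factor of S phase entry (15.8 against 35.5 CPM), and a pair of D-type cyclins, partners of Cdk4. Ccnd1 was 119 against 1378 CPM, a log2 ratio of -3.53 (-3.59 to -3.47), and Ccnd2 389 against 1246 CPM, while the related Ccnd3 (123 against 211 CPM) differed by less than 2-fold. Ccnd1 was higher still in the VM libraries, at 2060 to 3774 CPM.

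Of 13 measured cycle inhibitors 7 were at least 2-fold lower in Ctx NPC and 1 higher. Cdkn2a, the Ink4a and Arf locus, was 1.499 against 72.3 CPM, a log2 ratio of -5.57 (-6.17 to -5.07), Cdkn2b, its neighbour, 40.3 against 289 CPM and the p53 target Cdkn1a 665 against 1880 CPM. Cdkn1c, the p57 inhibitor of differentiating precursors and oligodendrocytes, was the higher one (104 against 5.27 CPM).

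**Figure D5:**
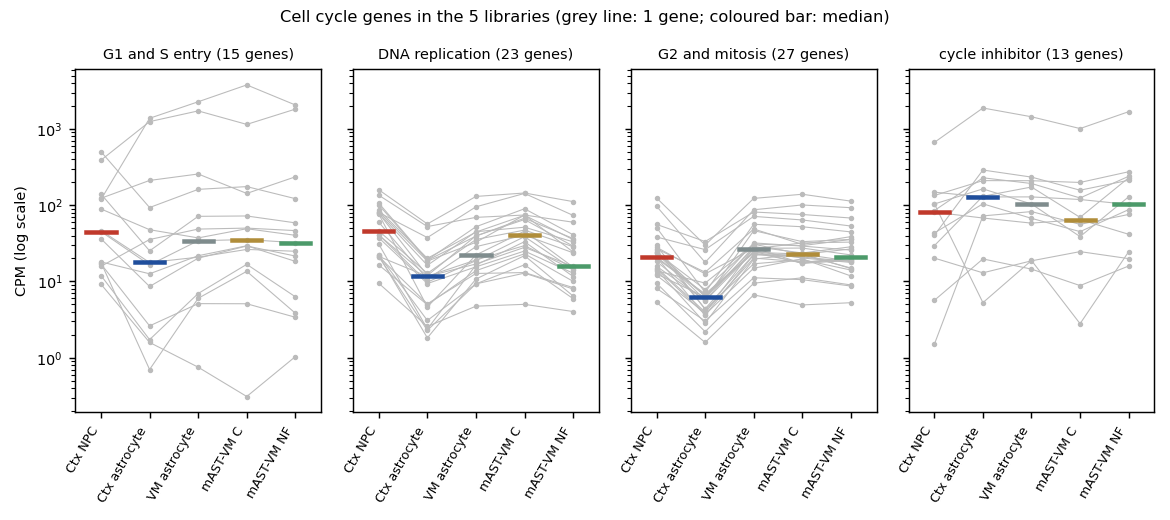
CPM on a log scale (vertical axis) of 4 cell cycle lists in the 5 libraries; each grey line is 1 gene and each coloured bar the median of the list in 1 library. The Ctx astrocyte library is lowest for replication (11.7 CPM) and mitosis genes (6.25 CPM), and the Ctx NPC library is near the VM libraries for mitosis (21.0 CPM against 20.8 to 26.8 CPM).

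Pathways outside the cell type lists also differed as groups. Of 20 measured cholesterol synthesis genes 17 were at least 2-fold higher in Ctx NPC and none lower, with a median log2 ratio of 1.89, and the same number was at least 2-fold above all 4 astrocyte libraries. The oligodendrocyte progenitor and myelin lists moved the same way, the latter with a summed level of 8816 against 347 CPM, and their part in the cholesterol gene levels was not tested. The ring-closing Lss was 87.7 against 9.98 CPM. Ebp, Sc5d and Hsd17b7, of the late steps, differed by less than 2-fold. The sterol regulatory element TCACNCCAC, searched on both strands, was in 1 of the 15 genes with a promoter window (Hmgcs1, which is not among the 20 genes measured) and in 1.05% of all windows.

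Interferon-stimulated genes were lower in Ctx NPC. Of 14 measured members 13 were at least 2-fold lower in Ctx NPC, all 13 also below the 4 astrocyte libraries, and the median log2 ratio was -4.18. Ifit3 was 1.05 against 231 CPM, a log2 ratio of -7.75 (-8.47 to -7.17), Ifit1 2.15 against 95.8 CPM, the factor Irf7 1.599 against 88.5 CPM and the ubiquitin-like Isg15 11.7 against 92.5 CPM. The signal transducer Stat2 was closer, at 25.7 against 51.1 CPM. Of 9 MHC class I genes 8 were at least 2-fold lower, among them the light chain B2m (156 against 1392 CPM), H2-K1 (94.9 against 518 CPM) and H2-D1 (98.2 against 595 CPM). The microglial genes moved with both lists, and the part of those cells in the interferon and MHC levels was not tested.

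Promoters of 3 of these genes are shown because each holds the core of the interferon-stimulated response element (TTTC, any 2 bases, TTTC) more than once. They are the 250 bases before the start in GRCm38.p6 (RefSeq): Ifit1 at chr19:34640639-34640888 and Ifit3 at chr19:34583279-34583528 on the plus strand, and Isg15 at chr4:156200819-156201068 on the minus strand. Capitals mark matches on either strand, which overlap each other in Isg15.
Ifit1: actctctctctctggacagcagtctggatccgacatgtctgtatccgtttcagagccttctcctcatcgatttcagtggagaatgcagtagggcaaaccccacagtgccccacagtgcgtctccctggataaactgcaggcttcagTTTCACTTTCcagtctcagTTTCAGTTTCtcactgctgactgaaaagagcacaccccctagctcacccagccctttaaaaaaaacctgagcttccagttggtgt
Ifit3: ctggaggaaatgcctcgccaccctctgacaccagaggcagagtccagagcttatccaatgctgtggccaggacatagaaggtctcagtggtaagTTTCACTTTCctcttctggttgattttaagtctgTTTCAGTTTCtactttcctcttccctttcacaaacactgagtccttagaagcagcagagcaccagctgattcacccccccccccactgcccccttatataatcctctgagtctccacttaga
Isg15: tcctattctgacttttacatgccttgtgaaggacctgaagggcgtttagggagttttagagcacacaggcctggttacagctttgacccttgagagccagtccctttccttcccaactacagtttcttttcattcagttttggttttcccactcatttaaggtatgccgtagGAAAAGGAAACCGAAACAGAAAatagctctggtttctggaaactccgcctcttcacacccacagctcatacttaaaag

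A match was found in 6 of the 12 interferon-stimulated genes with a promoter window, or in 42.9% of their windows, and in 2.98% of all windows.

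The reference genes, 11 of which were measured, had a median log2 ratio of 0.21, close to that of all genes. Only Hprt, a purine salvage enzyme, passed 2-fold, at 21.6 against 65.6 CPM. Actb, beta-actin, was 2234 against 1378 CPM and Tbp, the TATA-binding protein, 31.5 against 21.8 CPM.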

How the data were processed

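Total RNA of the 5 cultures was sequenced. The authors trimmed and aligned the reads, by their notes with STAR, counted them over exons with HTSeq and deposited read counts and FPKM for 20178 entries per library. The strand setting is not given in the sources used here, and the methods and the processing notes name different mouse builds (GRCm38 and mm9). Recomputed from the counts, the gene lengths and the library totals, FPKM differed from the deposited values by at most 4.095e-05 of the value.

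Symbols came from RefSeq (GRCm38.p6) for 19997 entries, and 181 kept their identifier. Counts were scaled to the library total with 0.5 reads added (Python 3.11.15, numpy 2.4.6). Genes passed with over 1 FPKM in at least 1 of the 2 libraries and were counted from 2-fold. Folds against 0 reads were set against a floor of 3 reads. A list was described by its counts and its median. Named genes were the 10 highest and 10 lowest ratios among genes with at least 10 CPM, the 10 highest by FPKM in each library, and for each list the member highest by FPKM, the 3 highest and 3 lowest ratios and any member described for its role (not every gene the rule gives is printed). The 33 lists and the comparison were chosen with earlier results of these data known. A further 4 lists (lysosome, metallothionein and ferritin, insulin-like growth factor binding, glycolysis), the motifs of the interferon-stimulated response element and the sterol regulatory element, and the comparison with all 4 astrocyte libraries were chosen after the values were seen. Alternatives used edgeR 4.0.16 (TMM), DESeq2 1.42.0 (size factors) and the upper quartile as scalings only. The ratio and its interval were tested on simulated data. With 1 library a condition no test was run. Some genes are not reported here.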

Additional observations from a re-analysis of the deposited data

How the results depend on the processing

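Values rest on 1 library a condition, so no alternative could leave out a replicate, and the same holds for pairing. No paired analysis was possible because each group had 1 library. Genes at least 2-fold higher or lower numbered 2034 and 2594 under TMM, 2050 and 2579 under median-of-ratios size factors, 2013 and 2608 under upper-quartile scaling, and 2328 and 2378 with the top 100 genes left out of the total. Without a filter 3487 genes were higher and 3961 lower, and with over 1 FPKM in both libraries 1933 and 1460. At 4-fold 869 were higher and 1147 lower, and against all 4 astrocyte libraries, an alternative chosen after the values were seen, 1220 and 1418. List medians (log2) stayed on their side of 0 under these scalings and with 5 reads added, except those of the brain lectican list (-0.0033 under TMM, -0.012 under upper-quartile scaling) and the immediate early list (-0.11 under TMM, -0.10 under size factors, -0.12 under upper-quartile scaling). Without a filter the midbrain and hindbrain median was -0.61, the endothelial -1.15 and the pericyte -1.08. With over 1 FPKM in both libraries the glutamatergic median was -0.65, the microglial -1.45 (1 gene) and the pericyte -1.03. With at least 10 CPM the midbrain and hindbrain median was 5.05 (1 gene), the endothelial -1.97 and the pericyte -1.03. Against VM astrocyte in place of Ctx astrocyte, a contrast of other cells, medians were -6.42 for midbrain and hindbrain, 1.25 for astrocyte, -5.52 for endothelial, -3.42 for pericyte, -3.34 for collagen, 0.99 for replication, -0.37 for G2 and mitosis and -0.48 for metallothionein and ferritin genes. The log2 ratios that turned there were Acsbg1 0.26, Atp1b2 0.15, Ccna2 -0.14, Ccnb2 -1.20, Cdc20 -0.86, En2 -1.06, Irx1 -4.20, Lhx2 2.99, Lum -0.91, Matn2 -2.16, Mt3 0.77, Otx2 -1.02, Pea15a 0.30, Rrm2 -0.25, Slc1a2 0.059 and Ube2c -0.39. Apart from the lists with few members the causes were not tested. Depth limits genes with 3 or fewer reads in a library, whose ratios have wide intervals.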

Other observations

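Some gene groups outside the comparison lists also differed between the cultures. The lysosomal, insulin-like growth factor binding, metallothionein and ferritin, and glycolysis groups were put together after the values were seen. They are given as descriptions, with 1 library a condition. Of 18 lysosomal genes 12 were at least 2-fold lower in Ctx NPC and none higher, with a median log2 ratio of -1.38. The protease Ctsd was 672 against 4874 CPM, with 4057 to 5832 CPM in the VM libraries, the sphingolipid activator Psap 1045 against 3405 CPM and progranulin, Grn, 72.4 against 285 CPM. Of 6 insulin-like growth factor binding proteins 4 were lower and 1 higher: Igfbp7 was 5.30 against 290 CPM and Igfbp3 490 against 3614 CPM, while Igfbp5 was 300 against 131 CPM. Among 5 metallothionein and ferritin genes, Fth1 was 1961 against 10918 CPM and the brain metallothionein Mt3 514 against 1108 CPM. Microglia are rich in lysosomes and their markers moved the same way, with summed levels of 27.9 CPM in Ctx NPC and 186 CPM in Ctx astrocyte. Their part in these values was not tested.

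Glycolysis as a whole was closer, with 10 of 16 genes within 2-fold, 5 lower, 1 higher and a median log2 ratio of -0.56. Pfkp, a phosphofructokinase, was 47.6 against 216 CPM, and Aldoc, the aldolase of astrocytes, was the higher one. In the FGF and MAPK feedback list 6 of 13 genes were at least 2-fold higher in Ctx NPC and none lower, led by Etv1 (62.3 against 5.60 CPM) and the phosphatase Dusp4 (50.7 against 11.01 CPM), while Dusp6 was 42.7 against 69.1 CPM. Among 12 measured immediate early genes 3 were higher and 2 lower, with Egr2, also a factor of myelinating Schwann cells, at 91.1 against 8.72 CPM and Fosb at 4.40 against 17.3 CPM.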
